A study of Homo sapiens with 12 samples.

Results

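The genes described here are 10 members of the transforming growth factor beta (TGF-beta) and bone morphogenetic protein (BMP) pathways: the ligand gene TGFB1, the receptors TGFBR1 and TGFBR2, the inhibitory SMADs SMAD6 and SMAD7, the inhibitor of DNA binding genes ID1, ID2, ID3 and ID4, and TGFBI. They were chosen by symbol, with every probe that carries one of these symbols taken, and each turned out to have 1 probe. The array table names 24961 distinct genes, of which 13528 were detected on at least 3 of the 12 arrays and tested. Of the 10 members 9 were tested, and ID4 was not.

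The cells were of the UM-UC-3 line, established from a human bladder cancer. The groups were a miR-101 precursor, a control precursor, an siRNA against EZH2 and a control siRNA, each given to otherwise untreated cells at 50 nM for 72 h before RNA was taken, with 3 arrays per group. The series title poses the question of whether miR-101 represses EZH2, which encodes the catalytic subunit of Polycomb repressive complex 2, a writer of a repressive histone mark. Transfections were in triplicate, and the labels do not say whether the cultures were independent. Each p-value therefore reflects only array-to-array spread, some of which may be technical. In bulk RNA, fewer cells that express a gene and less RNA per cell cannot be told apart.

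TGF-beta ligands bind the type II receptor TGFBR2, which activates the type I receptor TGFBR1, and the receptor pair phosphorylates SMAD2 and SMAD3. BMP ligands act in the same way through other receptors and SMAD1, SMAD5 and SMAD9, and both sets of SMADs join SMAD4 to bind DNA. SMAD6 and SMAD7 are induced by these signals and dampen them in a negative feedback. The ID genes are direct BMP targets in many cells, and TGF-beta can raise or lower them by cell type. ID proteins bind basic helix-loop-helix factors and keep them off DNA. TGFBI encodes a secreted matrix protein first found as a gene induced by TGF-beta.

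The transfected microRNA and the start-site windows of 3 members are shown: ID1 and ID3, which changed alike, and SMAD6, whose window holds a rare match. All are RefSeq sequences on GRCh38.p14. The mature miR-101-3p, from chr9:4850345-4850365 on the plus strand, has its seed, bases 2 to 8, in capitals. The windows run from 250 bases before to 50 bases after the annotated start. Each was searched on both strands for the SMAD-binding element CAGAC, its palindromic form GTCTAGAC and the GC-rich element GGCGCC, with matches in capitals. The palindrome does not contain CAGAC, so these matches do not overlap. The SMAD6 window is chr15:66701986-66702285 on the plus strand, the ID3 window chr1:23559452-23559751 on the minus strand, and the ID1 window chr20:31605039-31605338 on the plus strand.
miR-101-3p: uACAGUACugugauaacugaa
SMAD6: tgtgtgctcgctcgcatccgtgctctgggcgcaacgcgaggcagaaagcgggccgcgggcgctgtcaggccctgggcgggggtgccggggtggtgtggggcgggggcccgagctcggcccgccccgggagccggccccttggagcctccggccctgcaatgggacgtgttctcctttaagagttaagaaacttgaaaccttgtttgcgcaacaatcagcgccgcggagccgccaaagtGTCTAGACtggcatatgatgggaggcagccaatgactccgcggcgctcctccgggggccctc
ID3: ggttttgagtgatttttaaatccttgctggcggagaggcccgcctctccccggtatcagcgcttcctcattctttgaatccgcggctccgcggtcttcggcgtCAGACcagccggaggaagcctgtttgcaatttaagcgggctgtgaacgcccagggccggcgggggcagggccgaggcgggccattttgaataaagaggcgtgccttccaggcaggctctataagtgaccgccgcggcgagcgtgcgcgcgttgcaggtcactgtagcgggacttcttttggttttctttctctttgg
ID1: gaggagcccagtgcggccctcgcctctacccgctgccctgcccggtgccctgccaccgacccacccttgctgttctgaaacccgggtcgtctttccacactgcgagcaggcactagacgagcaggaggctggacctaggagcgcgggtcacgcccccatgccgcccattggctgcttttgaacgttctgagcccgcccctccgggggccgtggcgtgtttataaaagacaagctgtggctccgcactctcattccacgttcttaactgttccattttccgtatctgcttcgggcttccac

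The palindrome was found at position -12 from the SMAD6 start, and 0.202% of the 35116 windows searched hold it. In ID3 the only match was CAGAC at -147, a sequence held by 45.3% of all windows. The first SMAD7 window held CAGAC at -217 and at -128, and the TGFBI window held GGCGCC at -111, which 19.2% of all windows hold. A further SMAD7 window held CAGAC at -193 and the ID4 window held it at -205. TGFBR1, which has several annotated starts, held CAGAC in 4 of its windows and GGCGCC, at -161 and -133, in another. No match was found in the windows listed for ID1, ID2, TGFBR2 or TGFB1. A match is a description of the letters only, and binding was not measured.

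On each array 15453 to 16377 of 46713 probes were detected, and mean signals lay between 304 and 497. EZH2, which both treatments are meant to lower, fell on the log2 scale by 0.88 with miR-101 against the control precursor and by 1.41 with EZH2 siRNA against the control siRNA (limma adjusted p 2.22e-05 and 2.31e-06). Of 9 urothelial markers 3 (UPK1B, PPARG and FOXA1) were detected on all 12 arrays, while GATA3, KRT5, KRT20, UPK2 and UPK3A were detected on none and CDH1 on no more than 2. Of 4 mesenchymal markers VIM, CDH2 and ZEB1 were detected on all 12 and FN1 on none. The simple epithelial keratin genes KRT8 and KRT18 were also detected on all 12, KRT7 on 5 and KRT19 on none. No leukocyte, endothelial, erythroid or fibroblast marker was detected on all 12 arrays. The summed intensity of the 5 fibroblast markers was 118.8 to 130.4 units on miR-101 arrays and 78.6 to 87.8 on control precursor arrays. On EZH2 siRNA arrays that sum was 96.9 to 100.5, against 80.8 to 90.1 on control siRNA arrays. Group means of these 5 genes were 4.60 to 5.41 on the log2 scale. The median for undetected probes on the lowest array was 4.81. None of the 5 was detected on more than 4 arrays, so these sums are of near-floor signals. The part of those markers in the results below was not tested.

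Control precursor and miR-101 arrays lay on 1 chip and both siRNA groups on another, by the column headers, and on both chips the controls took positions A, B and C and the treatments took D, E and F. Each treatment was therefore compared with its own control within a chip, where position and treatment cannot be told apart. A comparison of a treatment with the other control, or of the controls with each other, crosses chips, and chip and group cannot be told apart there. All comparisons share arrays with others, so their values are given side by side only.

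In the comparison of miR-101 with the control precursor, 5 of the 9 tested members passed the threshold, an adjusted p under 0.05. ID1, ID2, ID3 and TGFBR2 were higher and TGFBI was lower. Of all genes tested 48.6% passed in this comparison, 25.1% higher and 23.6% lower, so the members' share of 55.6% is near the background. EZH2 siRNA against the control siRNA gave 7 of 9 members, with ID1, ID2, ID3, SMAD6, SMAD7 and TGFBI higher and TGFBR2 lower. Of all genes 12.3% passed there, 6.57% higher and 5.73% lower, and the members' share was 77.8%. The median member change was 0.82 on the log2 scale, against 0.01 over all genes. The members were chosen with earlier results of these data known. Their shares, here and below, and this median are therefore not read as an excess over all genes.

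**Figure D1:**
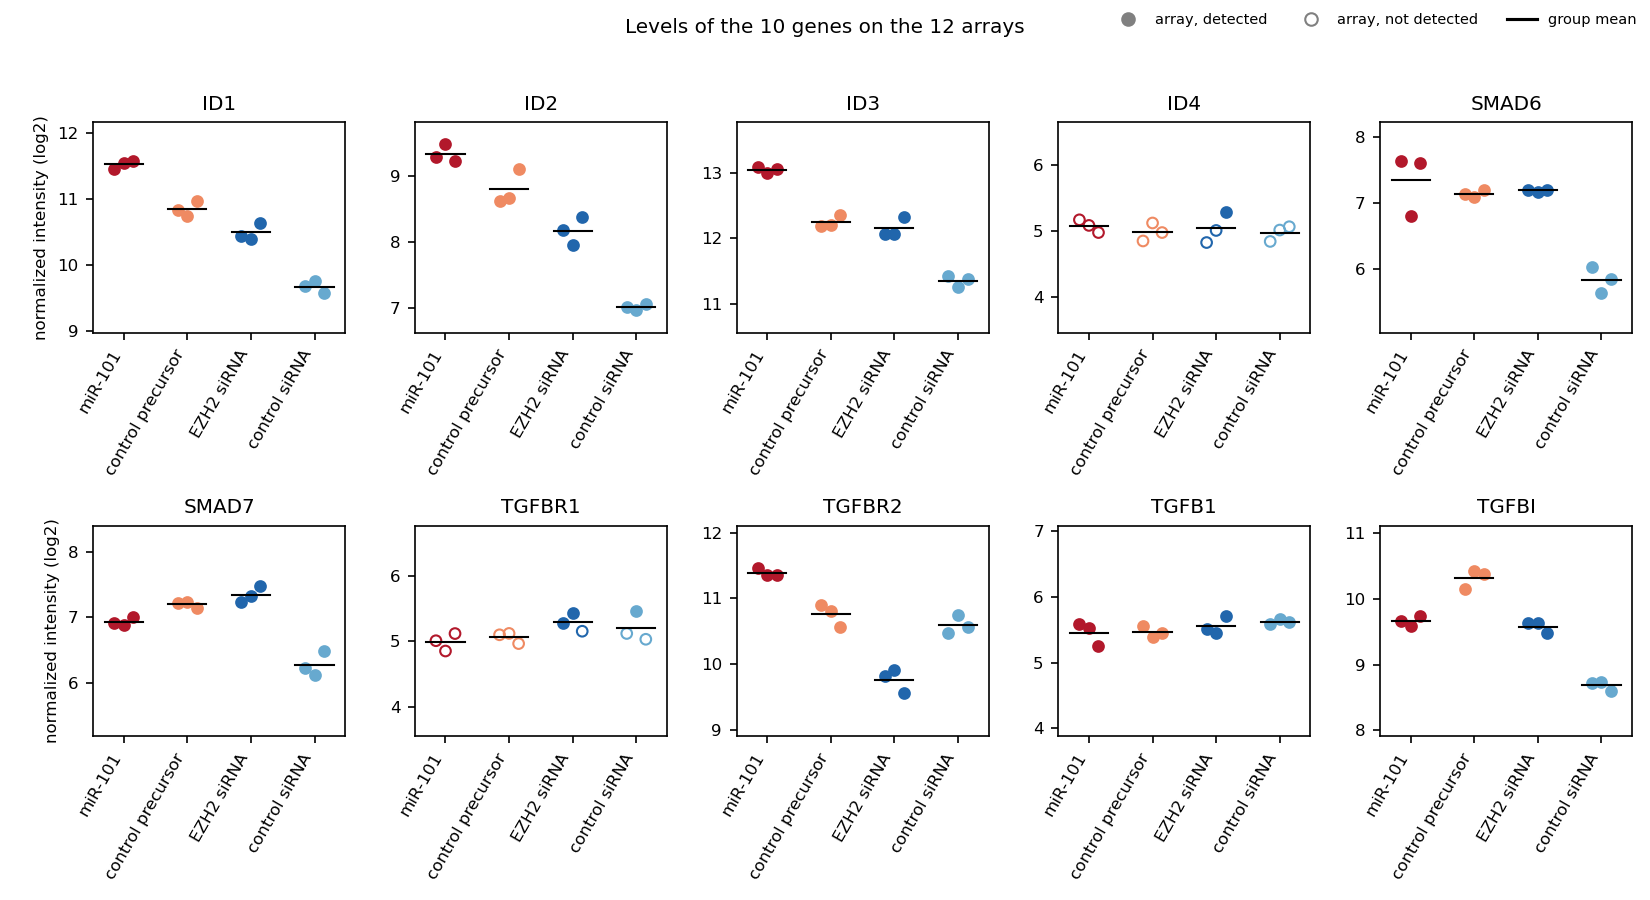
Normalized intensity (log2, vertical axis) of the 10 genes in the 4 groups. Each point is 1 array, filled where the probe was detected, the line is the group mean, and every panel spans the same number of log2 units around its own centre. ID1, ID2, ID3, SMAD6, SMAD7 and TGFBI are lowest in the control siRNA group, and TGFBR2 is lowest in the EZH2 siRNA group.

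Among the receptors, TGFBR2, the type II receptor that binds TGF-beta, moved in opposite directions with the treatments. Its normalized log2 intensity was 11.46, 11.35 and 11.36 on miR-101 arrays, against 10.90, 10.81 and 10.56 on control precursor arrays. With EZH2 siRNA it was 9.81, 9.91 and 9.56, against 10.47, 10.75 and 10.56 with the control siRNA. All miR-101 arrays lay above all others, and all EZH2 siRNA arrays lay below all others. Before normalization the TGFBR2 signal was 1650 to 3257 units on miR-101 arrays and 1554 to 2115 on control precursor arrays. These overlap, so those 2 groups were apart only after normalization. The change with miR-101 was 0.63 (SE 0.121), or 1.55-fold higher, with an adjusted p of 0.000310 in limma. With EZH2 siRNA it was -0.83 (SE 0.121), or 1.78-fold lower, with an adjusted p of 0.000203 in limma. The difference between these responses was 1.47 (95% interval 1.11 to 1.83).

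TGFBR2 kept its direction against either control. With miR-101 it was 0.79 above the control siRNA, and with EZH2 siRNA it was 0.99 below the control precursor (a change of -0.99). The controls, control siRNA minus control precursor, differed by -0.16 (95% interval -0.42 to 0.09, limma adjusted p 0.336) and their ranges overlapped. In order of level the groups were miR-101, control precursor, control siRNA and EZH2 siRNA, and of neighbours in that order only the controls did not differ beyond their spread. The detection p-values of the TGFBR2 probe were off the common step of the other probes on all 12 arrays. Those p-values served only to pass the probe as detected, and its signals entered the fit like any other.

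TGFBR1, the type I receptor, was dim. Its probe was detected on 0 of 3 miR-101, 0 of 3 control precursor, 2 of 3 EZH2 siRNA and 1 of 3 control siRNA arrays. Group means were 4.99, 5.06, 5.29 and 5.21 in that order of groups, against a median of 4.81 for undetected probes on the lowest array. The change was -0.07 with miR-101 (95% interval -0.33 to 0.19) and 0.09 with EZH2 siRNA (-0.18 to 0.35), each against its own control. Against the other control the change was -0.21 with miR-101 (-0.48 to 0.05) and 0.23 with EZH2 siRNA (-0.03 to 0.49), and TGFBR1 passed the threshold in no comparison. Each of these intervals includes no change.

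TGFB1, the ligand, was detected on all 12 arrays but near the floor. Its log2 intensity was 5.58, 5.53 and 5.26 with miR-101, against 5.56, 5.40 and 5.44 with the control precursor. It was 5.52, 5.45 and 5.72 with EZH2 siRNA, against 5.59, 5.66 and 5.63 with the control siRNA. Each treatment overlapped its own control. The changes were -0.01 (95% interval -0.24 to 0.22) and -0.06 (-0.30 to 0.17), and TGFB1 passed the threshold in no comparison. At this brightness a change of the ligand's messenger RNA smaller than these intervals was not detectable.

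SMAD6, the inhibitory SMAD that acts mainly on BMP signals, was higher with EZH2 siRNA than with the control siRNA. It measured 7.20, 7.17 and 7.21 on EZH2 siRNA arrays, against 6.04, 5.63 and 5.84 on control siRNA arrays. With miR-101 it was 7.64, 6.81 and 7.60, against 7.14, 7.09 and 7.21 with the control precursor. The siRNA groups were fully apart, while miR-101 replicate 2 lay below all control precursor arrays and the other miR-101 arrays lay above them. The change with EZH2 siRNA was 1.36 (SE 0.169), or 2.56-fold higher, with an adjusted p of 4.83e-05 in limma. With miR-101 it was 0.21 (SE 0.169, limma adjusted p 0.342), and without miR-101 replicate 2 it became 0.48 with an adjusted p of 0.00357. Replicate 2 was also the array with the lowest mean signal, 304 units, and the part of that in the SMAD6 value was not tested.

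SMAD7, which dampens both TGF-beta and BMP receptors, was also higher with EZH2 siRNA. Its levels were 7.24, 7.33 and 7.47 on EZH2 siRNA arrays, against 6.23, 6.12 and 6.48 on control siRNA arrays. With miR-101 they were 6.91, 6.89 and 7.01, against 7.21, 7.24 and 7.15 with the control precursor. Neither treatment overlapped its own control, but the miR-101 arrays lay below theirs. Before normalization the SMAD7 signals on miR-101 arrays (151 to 214 units) overlapped those on control precursor arrays (195 to 235). The change with EZH2 siRNA was 1.07 (SE 0.109), or 2.10-fold higher, with an adjusted p of 7.23e-06 in limma. With miR-101 it was -0.26 (95% interval -0.50 to -0.03), and the adjusted p of 0.0546 in limma missed the threshold, which it passed with array weights (-0.30, 0.0126). The responses differed by -1.33 for SMAD7 and by -1.15 for SMAD6 (miR-101 minus EZH2 siRNA, limma adjusted p 3.87e-06 and 0.00105).

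Both inhibitory SMADs were dim enough for the size of these changes to depend on the background. In the authors' quantile-normalized values, with no background removed, the change with EZH2 siRNA was 0.78 for SMAD6 and 0.66 for SMAD7. With the background inferred from all probes, the limma default, it was 0.33 for SMAD6 and 0.32 for SMAD7. All 4 values passed the threshold, and the difference of responses did not pass for SMAD6 with that default (-0.22, limma adjusted p 0.150).

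ID1 was higher with both treatments than with their own controls. It measured 11.46, 11.55 and 11.57 on miR-101 arrays, against 10.84, 10.74 and 10.97 on control precursor arrays. It measured 10.44, 10.40 and 10.64 on EZH2 siRNA arrays, against 9.69, 9.75 and 9.57 on control siRNA arrays. No 2 groups overlapped. The change was 0.68 (SE 0.104), or 1.60-fold, with miR-101 and 0.82 (SE 0.104), or 1.77-fold, with EZH2 siRNA, with adjusted p of 3.60e-05 and 5.37e-05 in limma. Before normalization the ID1 signal was 1894 to 3264 units on miR-101 arrays and 1933 to 2100 on control precursor arrays, which overlap, so these groups were apart only after normalization. With arrays scaled to a common median instead of a common distribution the ID3 change with miR-101, given next, was 0.50.

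ID3 gave nearly the same changes as ID1. Its levels were 13.09, 12.99 and 13.06 with miR-101, against 12.20, 12.21 and 12.36 with the control precursor. They were 12.07, 12.07 and 12.32 with EZH2 siRNA, against 11.43, 11.25 and 11.38 with the control siRNA. The treated arrays lay above their own controls in both pairs, and EZH2 siRNA overlapped the control precursor. Before normalization the ID3 signals on miR-101 arrays (5029 to 9765 units) overlapped those on control precursor arrays (5290 to 5898). ID3 was 1.73-fold higher with miR-101 and 1.74-fold higher with EZH2 siRNA (limma adjusted p 6.82e-06 and 6.96e-05). The difference between the responses was -0.01 for ID3 (95% interval -0.32 to 0.30) and -0.14 for ID1 (-0.46 to 0.17), which leaves room for differences of about that width.

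ID2 measured 9.29, 9.49 and 9.24 on miR-101 arrays, against 8.62, 8.67 and 9.11 on control precursor arrays. On EZH2 siRNA arrays it measured 8.18, 7.95 and 8.38, against 7.02, 6.96 and 7.06 on control siRNA arrays. No 2 groups overlapped, and control precursor replicate 3 came closest to the miR-101 arrays. Before normalization the ID2 signals on miR-101 arrays (525 to 810 units) overlapped those on control precursor arrays (500 to 587). The change was 0.54 (SE 0.136), or 1.45-fold, with miR-101 and 1.16 (SE 0.136), or 2.23-fold, with EZH2 siRNA (limma adjusted p 0.00328 and 2.65e-05). With the limma default background, inferred from all probes, the ID2 change with EZH2 siRNA was 0.66 (adjusted p 0.0205). ID2 differed between the responses past the threshold, by -0.62 (95% interval -1.03 to -0.22, limma adjusted p 0.0165). It did not pass in the authors' values (-0.38, adjusted p 0.0666) or with the limma default background (-0.04, 0.906). ID4 was detected on 1 of 12 arrays, an EZH2 siRNA array, and its group means of 4.98 to 5.08 give no comparison.

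TGFBI, the secreted matrix protein gene, moved in opposite directions. It measured 9.67, 9.59 and 9.73 on miR-101 arrays, against 10.15, 10.42 and 10.38 on control precursor arrays. On EZH2 siRNA arrays it was 9.63, 9.63 and 9.47, against 8.72, 8.73 and 8.60 on control siRNA arrays. The treated groups overlapped each other, and the controls lay above and below them. TGFBI was 1.58-fold lower with miR-101 and 1.86-fold higher with EZH2 siRNA, each against its own control (log2 changes -0.66 and 0.89, limma adjusted p 4.84e-05 and 2.49e-05). The difference between the responses was -1.55 (95% interval -1.86 to -1.24), and 5 of the 9 members passed in this contrast (TGFBR2, ID2, SMAD6, SMAD7 and TGFBI), against 37.5% of all genes (19.2% higher and 18.3% lower). Of these 5, TGFBR2 was higher and the others lower. Calls over all genes were higher in 51.2% of cases, and in 41.1% with arrays scaled to a common median.

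**Figure D2:**
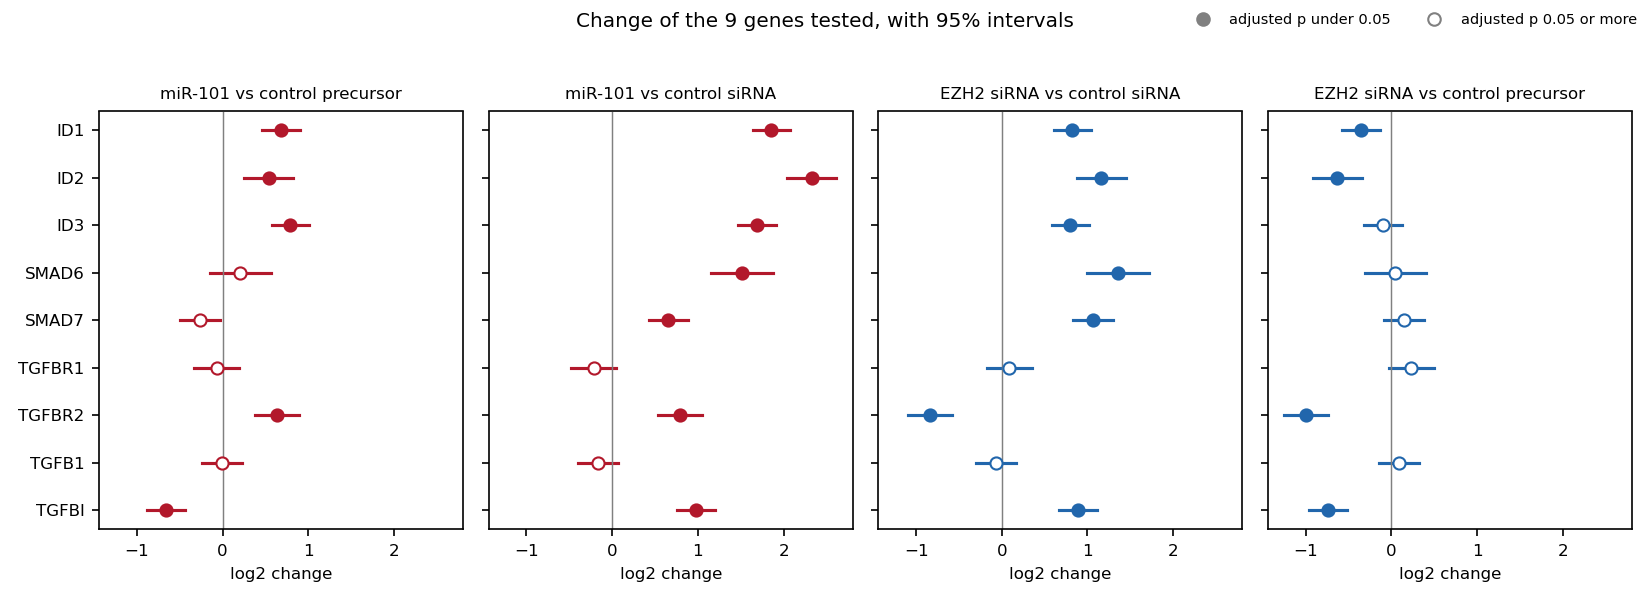
Log2 change (horizontal axis) of the 9 tested genes for each treatment against each control. Points are estimates, bars are 95% intervals, and filled points have an adjusted p under 0.05. With EZH2 siRNA, 6 genes are higher than the control siRNA and none is higher than the control precursor at that threshold.

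For several members the direction depended on which control was used. Control siRNA against control precursor gave 6 of 9 members past the threshold, all lower, against 15.9% of all genes lower, 16.2% higher and 32.1% called either way. The log2 changes were -1.79 for ID2 (3.46-fold), -1.63 for TGFBI (3.10-fold), -1.31 for SMAD6 (2.48-fold), -1.18 for ID1 (2.26-fold), -0.92 for SMAD7 and -0.90 for ID3. Adjusted p in limma ran from 7.42e-09 for TGFBI to 1.70e-05 for SMAD6. TGFBR2 did not pass in that comparison, and its value is given above.

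EZH2 siRNA against the control precursor gave 4 of 9 members, all lower, against 15.1% of all genes lower, 16.9% higher and 32.0% called either way. TGFBR2 (-0.99), TGFBI (-0.74), ID2 (-0.63) and ID1 (-0.36) passed, while ID3 (-0.10), SMAD6 (0.05) and SMAD7 (0.15) did not. The ID1 value, with a limma adjusted p of 0.0145, lost its call without control precursor replicate 3 (0.0588), EZH2 siRNA replicate 1 (0.0578) or EZH2 siRNA replicate 2 (0.0669). Thus ID1, ID2 and TGFBI were above the control siRNA and below the control precursor on EZH2 siRNA arrays. For ID3, SMAD6 and SMAD7, EZH2 siRNA and control precursor arrays overlapped.

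With miR-101 against the control siRNA, 7 of 9 members passed, all higher, against 24.4% of all genes higher, 22.4% lower and 46.8% called either way. The changes were 2.33 for ID2 (5.02-fold), 1.86 for ID1 (3.63-fold), 1.69 for ID3 (3.22-fold), 1.51 for SMAD6, 0.98 for TGFBI, 0.79 for TGFBR2 and 0.66 for SMAD7. TGFBI was thus higher than the control siRNA and lower than the control precursor on miR-101 arrays. ID1, ID2, ID3 and TGFBR2 were higher with miR-101 against either control.

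The group order for ID1 and ID2 was miR-101, control precursor, EZH2 siRNA and control siRNA, with every neighbour pair past the threshold. The step of ID1 between control precursor and EZH2 siRNA rested on single arrays, as given above. ID3 had the same order, with EZH2 siRNA and control precursor overlapping. For SMAD6 the arrays of miR-101, EZH2 siRNA and control precursor overlapped, and control siRNA lay below them. For SMAD7 the order was EZH2 siRNA, control precursor, miR-101 and control siRNA, with the first pair overlapping and miR-101 not past the threshold against control precursor. For TGFBI the control precursor was highest, then miR-101 and EZH2 siRNA, which overlapped, then control siRNA.

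Of 111 other genes of these pathways in 8 lists, 78 were tested. With miR-101 against its control, 19 were higher and 17 lower (46.2%, against 48.6% of all genes), with a median change of 0.05 against -0.0046 over all genes. With EZH2 siRNA against its control, 13 were higher and 8 lower (26.9%, against 12.3%), with a median of 0.02 against 0.01. The 13 became 7 without EZH2 siRNA replicate 1, and 8 without any 1 of the 3 control siRNA arrays. The list counts and list gene values below set each treatment against its own control unless another is named. Values against the other control are given for some genes only. Beside those counts, 25.1% of all genes were higher and 23.6% lower with miR-101, and 6.57% higher and 5.73% lower with EZH2 siRNA. The lists are small, and their counts were not tested against these shares.

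**Figure D3:**
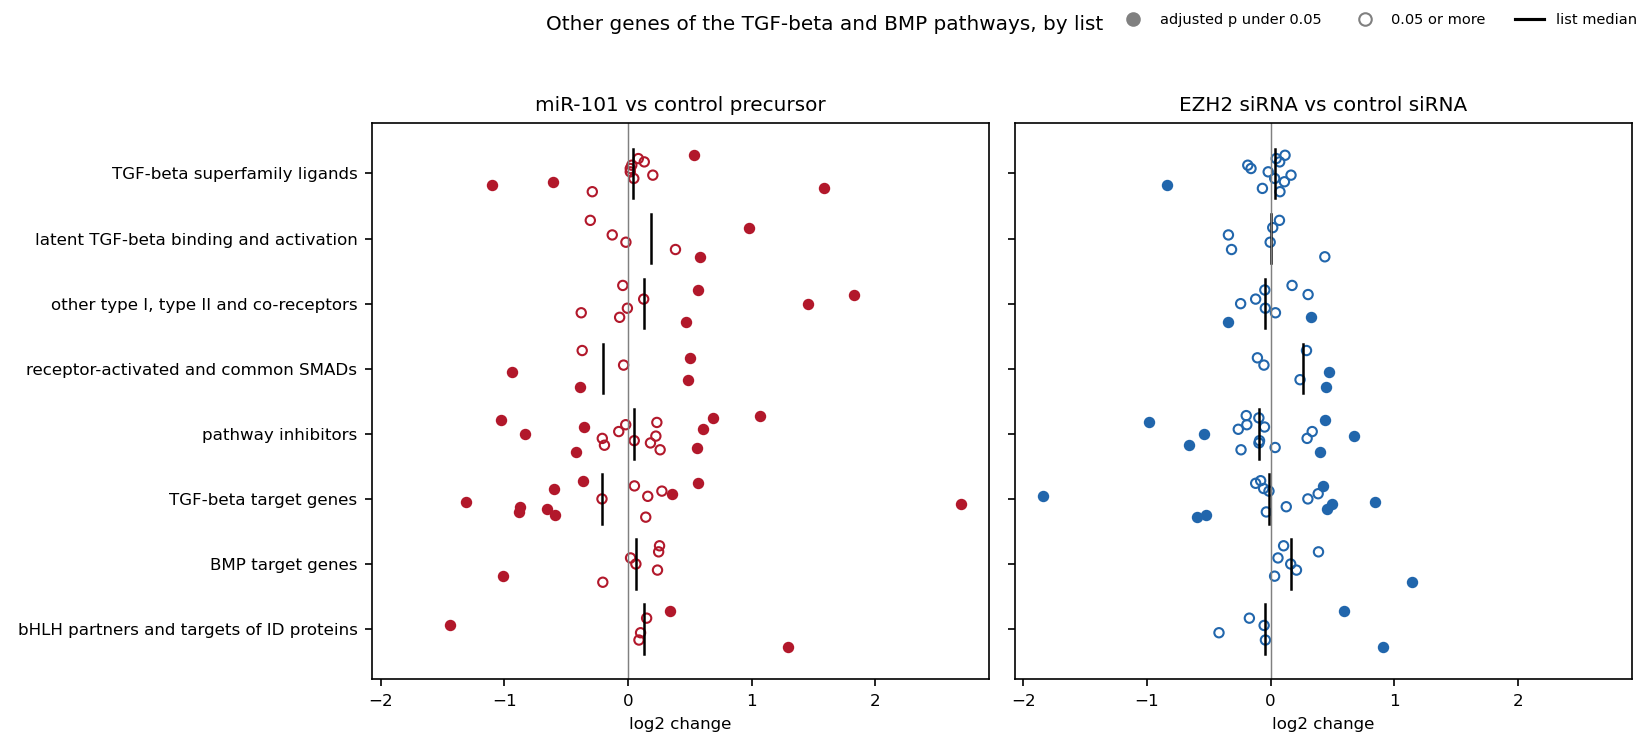
Log2 change (horizontal axis) of the 78 tested pathway genes, grouped by list, for miR-101 against control precursor (left) and EZH2 siRNA against control siRNA (right). Filled points have an adjusted p under 0.05 and the line is the list median. The medians stay between -0.21 and 0.26 while single genes such as IL11 lie far from them.

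Among ligands 2 of 12 were higher and 2 lower with miR-101, and 0 were higher and 1 lower with EZH2 siRNA. The BMP ligand gene BMP2 rose with miR-101 (1.59). BMP6, another BMP ligand, fell with both treatments, by 1.10 with miR-101 and by 0.84 with EZH2 siRNA. Against the other control BMP6 was -1.75 with miR-101 and -0.19 with EZH2 siRNA (limma adjusted p 9.87e-10 and 0.163). Of 6 genes of latent TGF-beta binding and activation, 2 were higher with miR-101, including the latent binding protein gene LTBP3 (0.98), and none passed with EZH2 siRNA in limma.

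Of 9 other receptor genes 4 were higher and 0 lower with miR-101 (44.4%, against 48.6% of all genes). With EZH2 siRNA 1 was higher and 1 lower (22.2%, against 12.3%). The largest rises with miR-101 among them were BMPR2, the BMP type II receptor (1.83, 3.56-fold, limma adjusted p 3.98e-10), and AMHR2, the anti-Mullerian hormone receptor (1.45). Against the control siRNA these were 0.55 and 1.37. AMHR2 averaged 6.60 on miR-101 arrays and 5.15, near the floor, on control precursor arrays. Of the 6 signalling SMADs 2 were higher and 2 lower with miR-101. SMAD3, which carries TGF-beta signals, fell by 0.94, and SMAD5, which carries BMP signals, rose (0.50). Against the control siRNA neither passed with miR-101 (-0.06 for SMAD3 and 0.03 for SMAD5, limma adjusted p 0.759 and 0.843). With EZH2 siRNA 2 of the 6 were higher and 0 lower.

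Among 17 pathway inhibitors 4 were higher and 4 lower with miR-101, and 3 were higher and 3 lower with EZH2 siRNA. The ubiquitin ligase gene WWP1 rose (1.07) and the SMAD corepressor gene TGIF2 fell by 1.03 with miR-101. Against the control siRNA WWP1 was 0.33 and TGIF2 -0.73. Its relative TGIF1 fell by 0.98 with EZH2 siRNA, and a second TGIF1 probe gave -0.82. FSTL3, a secreted activin antagonist, fell by 0.66 with EZH2 siRNA. Against the control precursor the FSTL3 change was -0.27 and did not pass (limma adjusted p 0.0822). PMEPA1, which sequesters receptor-activated SMADs, rose with EZH2 siRNA by its brighter probe (0.68), while a second probe gave 0.38 and did not pass (limma adjusted p 0.118).

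Of 15 TGF-beta target genes 3 were higher and 7 lower with miR-101, and 4 were higher and 3 lower with EZH2 siRNA. The cytokine gene IL11 rose 6.47-fold with miR-101 (2.69, limma adjusted p 8.26e-11) and rose less with EZH2 siRNA (0.50, limma adjusted p 0.0190). The collagen gene COL4A1 fell by 0.87 and the early response gene KLF10 by 1.31 with miR-101. Against the control siRNA the changes were -0.70 for COL4A1 and 0.06 for KLF10 (limma adjusted p 3.84e-05 and 0.739). KLF10 rose with EZH2 siRNA by the probe used (0.84), and a second probe gave 0.34 with an adjusted p of 0.0614. Against the control precursor the probe used was lower with EZH2 siRNA (-0.53, limma adjusted p 0.00368). CCN1 was lower with both treatments (-0.59 with miR-101 and -0.53 with EZH2 siRNA, limma adjusted p 0.000203 and 0.00390). Against the other control CCN1 was 0.93 with miR-101 and -2.05 with EZH2 siRNA.

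Of 7 BMP target genes 0 were higher and 1 lower with miR-101, the transcription factor gene GATA2 (-1.01). With EZH2 siRNA 1 was higher and 0 lower, the transcription factor gene ATOH8 (1.14, or 2.21-fold, limma adjusted p 2.69e-05). Of 6 partners and targets of ID proteins, 2 were higher and 1 lower with miR-101, and 2 were higher and 0 lower with EZH2 siRNA. TCF3, which encodes E proteins that ID proteins bind, fell by 1.44 with miR-101. The repressor gene HES1 rose with both treatments (1.30 with miR-101 and 0.91 with EZH2 siRNA). TWIST1 also rose with both (0.34 with miR-101 and 0.59 with EZH2 siRNA). Against the control siRNA TWIST1 with miR-101 was 0.14 and did not pass (limma adjusted p 0.321). Against the control precursor HES1 with EZH2 siRNA was 0.12 and did not pass (limma adjusted p 0.523). On control siRNA arrays HES1 was near the floor, with a mean of 5.14.

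The genes with the most similar levels across the 12 arrays were found by the root mean square difference of gene-centred log2 values, over 11587 named genes. For ID1 they were ID3 (0.140), the embryonic globin gene HBE1 (0.166) and the fetal globin gene HBG2 (0.177). For ID3 they were HBG2 (0.125), the heme synthesis gene UROS (0.137) and ID1 (0.140). HBG2 has a near-identical copy, HBG1, and its probe may read both. HBG2 averaged 5.33, near the floor, on control siRNA arrays. For TGFBR2 they were the oxysterol-binding protein gene OSBP (0.130), ENTPD7 (0.133), which encodes a nucleotide-hydrolysing enzyme, and the zinc finger gene ZNF281 (0.162). A short distance is a description of these 12 arrays.

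**Figure D4:**
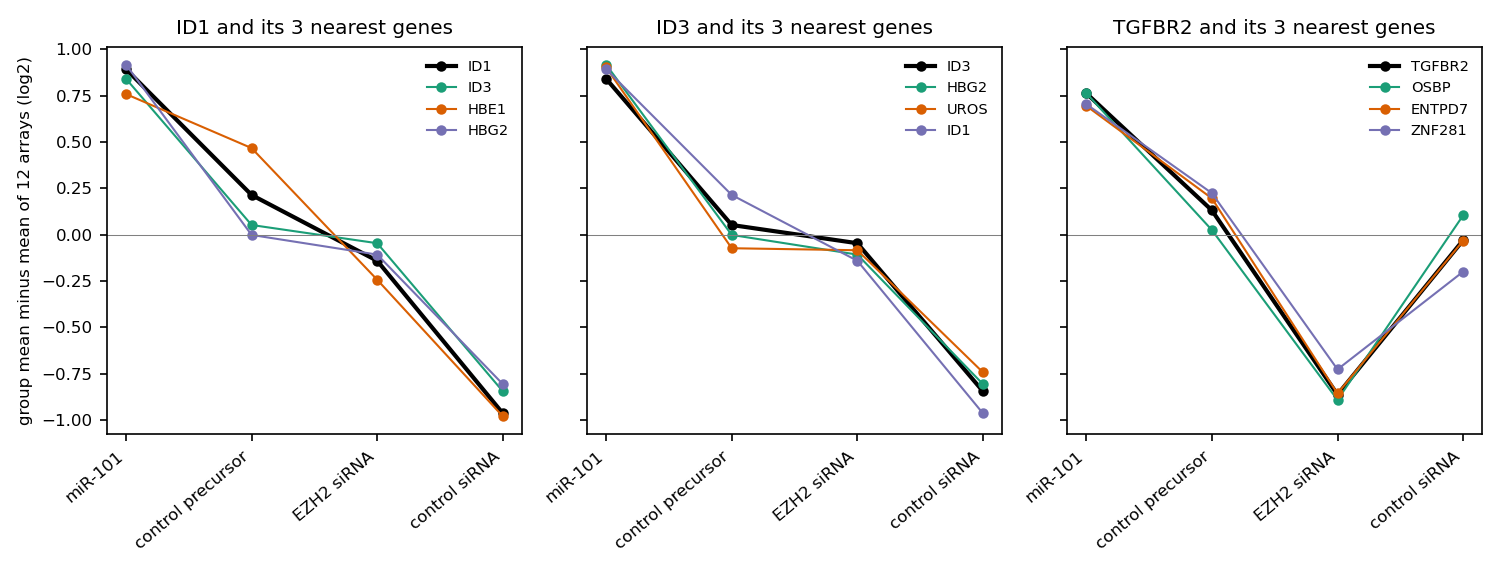
Group means relative to the mean of all 12 arrays (log2, vertical axis) for ID1, ID3 and TGFBR2, each in black, with their 3 nearest genes. ID1 and ID3 are highest with miR-101 (0.89 and 0.84) and lowest with the control siRNA (-0.97 and -0.85), and TGFBR2 is lowest with EZH2 siRNA (-0.86).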

How the data were processed

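Illumina bead arrays of 1 colour were used for the 12 samples. Per probe, the authors deposited a raw bead signal in intensity units and, per the file headers, a detection p-value, for 46713 probes. BeadStudio was used, per the submitters' processing notes, with no version named. A second deposited table of quantile-normalized intensity values served only as an alternative. No sample column was left unused.

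Background, quantile normalization and log2 used neqc (limma 3.58.1 under R 4.3.3) at an offset of 16, which understates changes of dim genes. Detection p-values of 96.2% of probes shared a step of 1 in 1374. The background was inferred from those 44935 probes, because 1778 probes off the step broke the relation of p-value to signal. This was chosen after a first fit with the default, which uses all probes, had been run and its results for these genes seen, so it is not an independent choice. The default is given as an alternative, added after the data were seen.

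Probes with a detection p-value below 0.05 on 3 or more arrays were kept, with the brightest of a gene used. Names came from RefSeq accessions or symbols. A 4-group linear model (lmFit, eBayes) gave 6 contrasts with 8 residual and 8.71 prior degrees of freedom, two-sided, with Benjamini-Hochberg adjustment over 13528 genes. The procedure was tested on simulated data. Precision is limited by the number of arrays.

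The members, lists and tests were chosen with earlier results of these data known. Beside the members and EZH2, named genes were up to 3 per list with the smallest adjusted p in either treatment, and the 3 nearest profiles of ID1, ID3 and TGFBR2, leaving out uncharacterized symbols. The result of 1 gene that this rule took is not reported here.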

Additional observations from a re-analysis of the deposited data

Results flagged for a closer look

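For 26 of the named genes the response to miR-101 differed from the response to EZH2 siRNA, each against its own control, by a test of the difference itself in limma (adjusted p under 0.05). Of all genes tested 37.5% passed in this contrast. The list genes were named for a small adjusted p in either of these same responses, so their count is not read against that share. The nearest-profile genes are not counted among the 26. All values are miR-101 minus EZH2 siRNA on the log2 scale. Among the members and EZH2 the differences were 1.47 for TGFBR2, -1.55 for TGFBI, -1.33 for SMAD7, -1.15 for SMAD6, -0.62 for ID2 and 0.54 for EZH2. With the other EZH2 probe the difference was 0.99. The EZH2 call was lost without miR-101 replicate 3, control precursor replicate 3, EZH2 siRNA replicate 1 or 3, or control siRNA replicate 3 (adjusted p 0.0550 to 0.0740).

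Among named ligand and latent-complex genes the difference was 1.65 for BMP2, -0.71 for BMP7 and 0.96 for LTBP3. For receptors it was 1.53 for BMPR2, 1.69 for AMHR2, 0.81 for ACVR1 and -0.39 for ACVR1B, whose second probe gave -0.05. For signalling SMADs it was -1.41 for SMAD3, -0.84 for SMAD1 and 0.61 for SMAD5. Inhibitors gave 1.27 for WWP1, 1.22 for TGIF1, -1.47 for TGIF2 and 0.47 for FSTL3. Target genes gave 2.20 for IL11, -2.15 for KLF10, -1.001 for COL4A1, -1.35 for ATOH8 and -1.04 for GATA2, and the ID partner TCF3 gave -1.39. Leaving out 1 array ended the call of ACVR1B for 5 arrays (adjusted p 0.0511 to 0.0614): miR-101 replicate 3, control precursor replicate 3, EZH2 siRNA replicate 1 and control siRNA replicates 2 and 3. It ended that of FSTL3 for 4 (0.0533 to 0.0845): miR-101 replicate 3, control precursor replicate 2, EZH2 siRNA replicate 1 and control siRNA replicate 3. The control arms of these differences lay on different chips, and their part in the differences was not tested.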

How the results depend on the processing

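With the background inferred from all probes, the limma default, the members past the threshold in the difference of responses numbered 3 in place of 5. ID2 (-0.04, adjusted p 0.906), SMAD6 (-0.22, 0.150) and EZH2 (0.32, 0.205) lost their calls there, and SMAD7 with miR-101 against control precursor gained one (-0.10, 0.0286). SMAD7 in that comparison also passed with an offset of 50 (-0.21, 0.0421) and with array weights (-0.30, 0.0126), and SMAD6 with array weights (0.40, 0.0155). ID2 in the difference lost its call in the authors' values (-0.38, 0.0666). The EZH2 difference lost it with median scaling (0.43), with array weights (0.36) and when 1 of 5 arrays was left out. Called changes of SMAD6 and SMAD7 in the other comparisons kept their calls and shrank, as with the control siRNA against control precursor (-0.31 and -0.26 with the default background, -0.75 and -0.56 in the authors' values). The count of all genes for EZH2 siRNA against control siRNA was 1664, 3121 with array weights, and 956 (without control siRNA replicate 3) to 1270 with 1 array left out. Without control siRNA replicate 2 it was 1043. Members called there stayed at 7 with any 1 array left out.

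Named pathway genes were recomputed where they had passed the threshold. Among the values of the members and EZH2, signs turned only for values near 0 and not past the threshold. TGFB1 with miR-101 gave 0.049 with median scaling and 0.062 with array weights, and ID3 in the difference gave 0.099 with array weights. With 1 array left out at a time, TGFB1 ranged from -0.073 to 0.091 and TGFBR1 from -0.13 to 0.0018 with miR-101, and TGFBR1 from -0.0017 to 0.22 with EZH2 siRNA, each against its own control. EZH2 between the controls ranged from -0.18 to 0.040, and in the difference ID3 ranged from -0.054 to 0.074 and TGFB1 from -0.011 to 0.15.

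The labels do not say whether the replicate numbers pair the arrays. Deviations of same-numbered arrays correlated at -0.10 to 0.31, which does not decide it, and the main fit used no pairing. With the replicate number as a block, members past the threshold numbered 6 with miR-101 and 7 with EZH2 siRNA, each against its own control, and SMAD7 with miR-101 passed (adjusted p 0.0479).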
